A study of Mus musculus with 29 samples.

Results

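The transcriptome of young hematopoietic stem cells (HSCs) was compared between libraries labelled Gadd45b knockout (YKO) and wild type (YWT). Members were taken by their labels alone, as the 8 libraries with the treatment entry young, of which 4 carry the genotype Gadd45KO and 4 the genotype WT, out of 19 RNA-seq libraries with a count file and 29 samples in the series. The cells were sorted from mouse bone marrow as lineage-negative, c-Kit and Sca1 positive cells without CD34 and Flk2 and with CD150. The knockout mice were a commercial Gadd45b line bred at the study's facility, the part of the gene that the allele removes is not given in the sources used here, and neither is whether the YWT animals were littermates. All 8 libraries were sequenced in batch 1, and the ages are given only as young. The other 11 libraries are from old mice, 7 of genotype Gadd45KO (OKO) and 4 of genotype WT (OWT).

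GADD45B belongs to a small family of stress-induced proteins without known enzymatic activity. It binds the kinase MTK1 upstream of p38 and JNK, is induced by NF-kB and TGF-beta signalling, and takes part in active DNA demethylation, in which thymine DNA glycosylase (TDG) excises oxidized methylcytosine. HSCs are largely quiescent cells that sustain blood formation and depend on transcription factors such as MECOM, HLF and MEIS1. Several erythroid and megakaryocytic transcripts are already present at low level in HSCs and rise steeply in committed progenitors.

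Between 42603399 and 62463034 reads were counted on genes in the YWT libraries and between 22197555 and 62472600 in those labelled YKO, where YKO1 is the shallowest. Values are CPM, the reads of a gene scaled to a common library size, after TMM normalization, and 33690 of 55376 genes passed the filter on low counts. HSC transcripts were present in all 8 libraries, with Kit at 880 to 1228 CPM, Slamf1 (which encodes CD150) at 42.4 to 63.6 CPM and Hlf at 149.9 to 350 CPM. Transcripts of other cells were unequal between libraries. The summed level of 8 plasma cell genes was 27068 CPM in YWT2, 8911 in YKO1 and 13792 in YKO2, against 760 to 1972 in the other 5 libraries. Most of this sum was 1 gene, Jchain, at 24827 CPM in YWT2, 7968 in YKO1 and 12481 in YKO2. The summed level of 14 T and NK cell genes was 295 CPM in YKO1 and 207 in YKO2, against 62.2 to 115 in the other 6. YWT4 and YKO2 had the most genes with a count, 42954 and 43113, against 31266 to 38980 in the others. All 8 libraries are labelled female, but Xist was high in YWT1, YWT2, YKO1 and YKO2 (148 to 259 CPM), and the Y-linked genes Ddx3y, Eif2s3y, Kdm5d and Uty were expressed in YWT3, YWT4, YKO3 and YKO4 (summed 145 to 218 CPM), which leaves 2 libraries of each kind in each group. The called genes and the gene lists are therefore also given without YWT2, YKO1 and YKO2. Of the young libraries, that fit keeps YKO3 and YKO4 against YWT1, YWT3 and YWT4. Among these only YWT1 had high Xist, so sex and genotype are partly mixed in that fit.

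Gadd45b itself (ENSMUSG00000015312.9, mm10 chr10:80930073-80932204, plus strand) did not separate the 2 groups. Its level was 9.12, 17.5, 8.17 and 7.34 CPM in the 4 YWT libraries and 12.7, 14.3, 5.98 and 5.14 CPM in those labelled YKO. The lowest 2 of the 8 values were those of YKO4 and YKO3, while YKO1 and YKO2 fell inside the range of the YWT group. The log2 fold change was -0.14 (SE 0.36, edgeR quasi-likelihood p = 0.688), and an exact permutation test of log2(CPM + 1) over 4 against 4 libraries gave p = 0.743 (two-sided), where the smallest p that the design allows is 0.0286. Without YWT2, YKO1 and YKO2 the log2 fold change was -0.58 (edgeR adjusted p = 0.916). The direction turned when YWT2 alone was left out (0.18) or YKO4 alone (0.02). A count over the whole gene cannot show which part of it was read, so it does not test a partial deletion, and the direction of each comparison is drawn from the labels. In the libraries of old mice, which have no library in common with the young ones, Gadd45b had a mean of 4.45 ± 1.39 CPM over OKO (SD, n = 7) and, over OWT, of 11.5 ± 2.63 CPM (SD, n = 4).

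The paralogs are also stress-induced. Gadd45a was at 28.1, 19.5, 18.5 and 11.8 CPM in YWT and at 42.2, 17.2, 37.8 and 28.004 CPM in the libraries labelled YKO, with overlap, and had a log2 fold change of 0.68 (SE 0.29, unadjusted p = 0.0301 and adjusted p = 0.989, edgeR). Gadd45g had a log2 fold change of 0.13 (SE 0.39) and also overlapped. None of the 17 genes of the list of MTK1, p38 and JNK kinases was called, and 10 of them were higher and 7 lower.

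**Figure D1:**
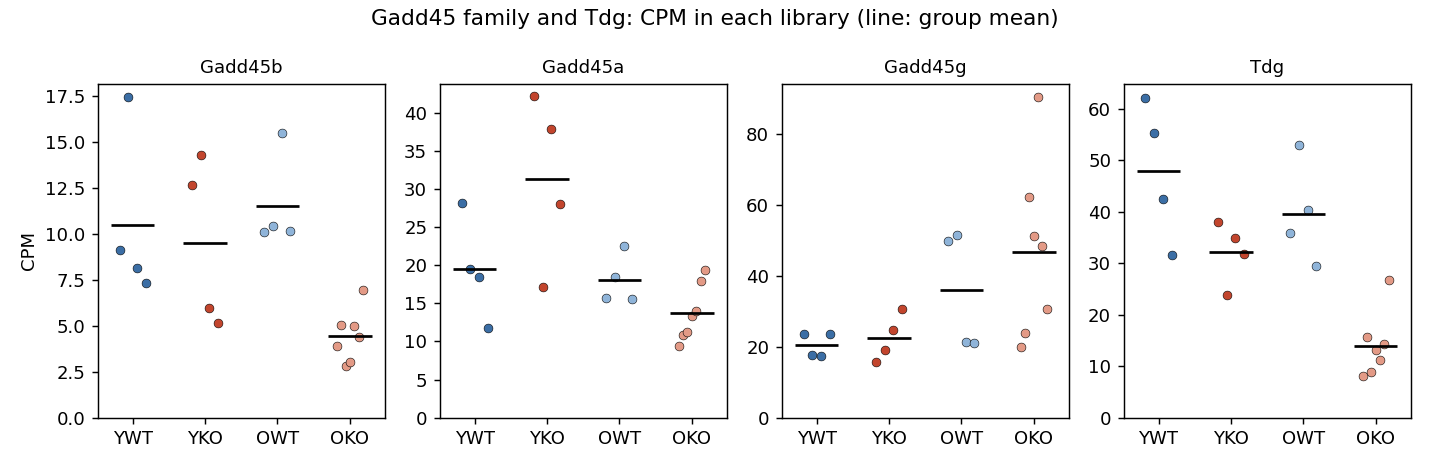
CPM of Gadd45b, Gadd45a, Gadd45g and Tdg (vertical axes) in each library of the 4 groups (horizontal axes), with a line at the group mean. For Gadd45b, 2 of the 4 libraries labelled YKO lie within the YWT range, while the 7 OKO libraries lie below the 4 OWT libraries.

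In YKO vs YWT 9 genes were called with a fold change over 1.5 and an adjusted p under 0.05, 7 higher and 2 lower in the libraries labelled YKO, which is 0.0267% of the genes tested. They are 4 protein-coding genes, a processed pseudogene, 2 lincRNAs, a gene of the GENCODE class TEC, which lacks experimental support, and a symbol without a position in the annotation used here. For each of the 9, all libraries labelled YKO lay on one side of all YWT libraries. Among all tested genes, 2.12% had all libraries labelled YKO above all YWT and 3.01% all below. The 9 were called from these same values, so their separation is a description. Taken over the 33690 genes, the median log2 fold change was -0.02. An unadjusted p under 0.05 was found for 1548 genes, 645 higher and 903 lower. The number called depended on the tool and the libraries, with 136 called by DESeq2 on the same 19 libraries, the 9 among them, and 33 by edgeR on the 8 young libraries alone.

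Wdfy1 had the smallest p. It encodes an endosomal FYVE and WD40 domain protein that binds phosphatidylinositol 3-phosphate and lies at mm10 chr1:79702262-79776143. Its level was 17.2, 14.9, 20.5 and 11.5 CPM in YWT and 70.2, 61.7, 77.0 and 81.4 CPM in the libraries labelled YKO. It rose by 2.18 on the log2 scale (SE 0.27, edgeR adjusted p = 0.00154), and each library labelled YKO was at more than 60 CPM while no YWT library exceeded 20.5.

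Tbc1d4 and Cysltr2, both on chromosome 14, were the genes that fell. Tbc1d4 (chr14:101442360-101609191) encodes AS160, a Rab GTPase-activating protein that holds back GLUT4 vesicles until AKT phosphorylates it. It was at 46.8, 49.6, 53.6 and 41.0 CPM in YWT and at 17.4, 20.2, 13.99 and 16.2 CPM in the libraries labelled YKO, and fell by 1.49 on the log2 scale (SE 0.24, edgeR adjusted p = 0.0198). Cysltr2 (chr14:73025603-73049114) encodes a receptor for cysteinyl leukotrienes. It was at 22.2, 29.1, 22.2 and 23.6 CPM in YWT and at 11.1, 7.32, 8.07 and 7.44 CPM in the libraries labelled YKO, and fell by 1.52 on the log2 scale (SE 0.26, edgeR adjusted p = 0.0387). The YWT libraries of both genes were all at more than 1.5 times the highest library labelled YKO.

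Alas2 was the called gene with a function in red cells. It encodes the erythroid 5-aminolevulinate synthase, the first and rate-limiting enzyme of heme synthesis, and lies on the X chromosome (chrX:150547375-150570638). It was at 7.37, 10.8, 7.24 and 9.12 CPM in YWT and at 48.7, 22.9, 41.7 and 47.3 CPM in the libraries labelled YKO. It rose by 2.22 on the log2 scale (SE 0.39, edgeR adjusted p = 0.0430), and YKO2 was the lowest of its group.

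The other called genes are non-coding or unplaced. The lincRNA 4930480K23Rik (chr14:69732784-69767113) had narrow groups, at 5.08, 5.69, 6.21 and 6.06 CPM in YWT and at 22.09, 20.96, 18.68 and 17.996 CPM in the libraries labelled YKO (log2 fold change 1.79, SE 0.27, edgeR adjusted p = 0.0109). AC158975.2, a lincRNA on chromosome 18, was at 0.867 to 2.46 CPM in YWT and at 7.78 to 16.6 CPM in the libraries labelled YKO (log2 fold change 2.77, SE 0.47, edgeR adjusted p = 0.0299). Gm49980, which is not in the annotation used here, was at 1.18 to 2.96 and 10.3 to 22.5 CPM (log2 fold change 2.93, SE 0.42, edgeR adjusted p = 0.00553). Gm45104, the TEC gene at chr7:18396516-18400865, was nearly absent from YWT, with 0, 1, 2 and 5 reads against 233, 413, 645 and 502 in the libraries labelled YKO, or 7.77 to 13.4 CPM there (edgeR adjusted p = 0.0430). With so few reads in YWT its fitted log2 fold change, 8.04, depends on the prior count.

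**Figure D2:**
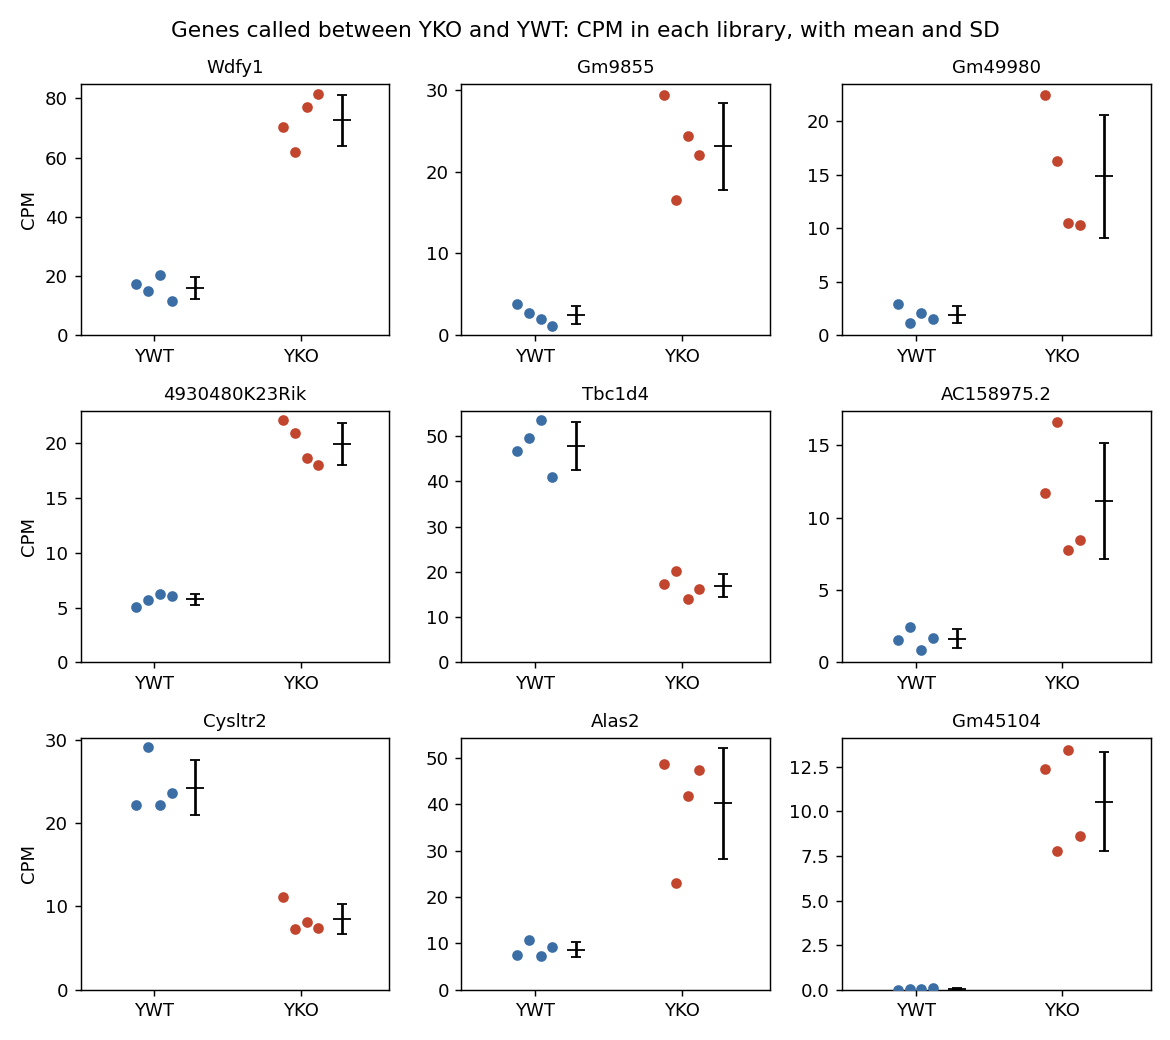
CPM (vertical axes, from 0) of the 9 called genes in the 4 YWT and the 4 libraries labelled YKO, in order of p, with the mean and SD beside the points. The groups do not overlap in any panel, and for Alas2 the lowest YKO point, YKO2, is at 22.9 CPM against 10.8 CPM in the highest YWT library. The genes were called from these same values.

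Gm9855, the called pseudogene, is a spliced copy of Tdg, the glycosylase gene named above. A sequence comparison shows how far reads of the 2 can be told apart. Over the 1191 bases of the Tdg coding sequence, Gm9855 was 99.2% identical with 9 mismatches and no gap, and the longest stretch without a mismatch was 756 bases. The part of a coding exon with the most mismatches is printed from the mm10 genome on the strand of each gene (Tdg chr10:82648578-82648717, plus, exon 10, and Gm9855 chr10:42054116-42054255, minus), with the 4 mismatches of 140 bases in capitals.
Tdg: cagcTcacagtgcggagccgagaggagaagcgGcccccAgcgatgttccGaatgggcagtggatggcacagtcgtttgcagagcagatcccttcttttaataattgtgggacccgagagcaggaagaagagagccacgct
Gm9855: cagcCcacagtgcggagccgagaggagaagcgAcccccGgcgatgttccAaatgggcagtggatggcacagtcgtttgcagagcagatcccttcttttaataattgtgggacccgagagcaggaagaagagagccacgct
Gm9855 was at 3.79, 2.75, 2.03 and 1.18 CPM in YWT and at 29.3, 16.6, 24.3 and 22.1 CPM in the libraries labelled YKO. It rose by 3.24 on the log2 scale (SE 0.42, edgeR adjusted p = 0.00199). Tdg was at 62.1, 55.3, 42.4 and 31.6 CPM in YWT and at 37.95, 23.8, 34.9 and 31.8 CPM in the libraries labelled YKO, with overlap and a log2 fold change of -0.58 (SE 0.31, unadjusted p = 0.0768, edgeR). Because most of their sequence is shared, how reads were divided between Tdg and Gm9855 is uncertain for both genes, and it was not tested.

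Leaving out YWT2, YKO1 and YKO2 kept the direction of all 9 genes and left none called. It set YKO3 and YKO4 against YWT1, YWT3 and YWT4, so fewer libraries and unbalanced sexes entered the comparison. In that fit 0 of 38678 genes passed the threshold in edgeR, 1796 had an unadjusted p under 0.05, and the median log2 fold change over all genes was -0.24, against which its list medians are to be read. The log2 fold changes without these libraries were 2.26 for Wdfy1 and 3.30 for Gm9855 (edgeR adjusted p = 0.0643 for both), 2.46 for Alas2 and -1.66 for Tbc1d4 (0.442 for both) and -1.57 for Cysltr2 (0.665). Without YWT4 alone 2 genes were called, without YWT3 alone 3, without YWT1 alone 4 and without YKO1 or YKO3 alone 5 each. Wdfy1 and Gm9855 were called each time 1 library was left out.

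Genes that missed the threshold but did not overlap between the groups were taken as the 8 higher and 8 lower of smallest p with a mean of at least 8 CPM. Over all tested genes, 2.12% had all libraries labelled YKO above all YWT and 3.01% all below. Since non-overlap chose these 16 genes, their levels are a description.

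Lower genes included abundant ones. Apoe, the apolipoprotein of lipid transport, was at 1162, 925, 972 and 941 CPM in YWT and at 234, 231, 397 and 402 CPM in the libraries labelled YKO (log2 fold change -1.66, SE 0.31, edgeR adjusted p = 0.0597). The lowest YWT library was more than 2 times the highest library labelled YKO.

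Slc1a5, which encodes the glutamine transporter ASCT2, was at 174, 224, 153 and 139 CPM in YWT and at 45.6, 68.3, 35.2 and 40.2 CPM in the libraries labelled YKO (log2 fold change -1.86, SE 0.38, edgeR adjusted p = 0.0958). Prtn3, the neutrophil serine protease proteinase 3, was at 136 to 163 CPM in YWT and at 13.5, 35.4, 41.3 and 69.6 CPM in the libraries labelled YKO (log2 fold change -1.86, SE 0.35, edgeR adjusted p = 0.0647). Of the 15 granulocyte markers, which include it, 7 were higher and 8 lower in the fit of all libraries (median -0.09). With YWT2, YKO1 and YKO2 left out, 14 of the 15 were lower, 5 had an unadjusted p under 0.05 and the median was -1.61. Stap1, a signalling adaptor of B and myeloid cells, had tight groups, at 53.9 to 65.4 CPM in YWT and 26.5 to 30.8 CPM in the libraries labelled YKO (log2 fold change -1.06, SE 0.19, edgeR adjusted p = 0.0510). Mctp1, with calcium-binding C2 domains, and Rhobtb3, an atypical small GTPase, lie in the same stretch of chromosome 13 and had log2 fold changes of -1.37 and -1.40.

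Of the 8 higher genes, Slc26a1, a sulfate anion transporter, differed most. It was at 10.6, 9.29, 6.31 and 4.35 CPM in YWT and at 90.5, 44.6, 120 and 112 CPM in the libraries labelled YKO (log2 fold change 3.59, SE 0.78, edgeR adjusted p = 0.181). Trib2, a pseudokinase that promotes degradation of C/EBP alpha, was at 25.9 to 112 CPM in YWT and at 169 to 336 CPM in the libraries labelled YKO (log2 fold change 1.71, SE 0.40). Naaa, a lysosomal acid amidase, Cd59a, an inhibitor of the complement membrane attack complex, Cox18, a factor for inserting a cytochrome oxidase subunit, and Palm, a membrane-associated phosphoprotein, had log2 fold changes between 1.09 and 1.33. The lincRNA Gm42031 had one of 2.98, with YKO1 and YKO2 at 23.4 and 22.8 CPM and YKO3 and YKO4 at 6.46 and 5.18. Slc4a1, the band 3 anion exchanger of red cells, is described with the erythroid genes.

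Red cell genes were higher as a group in the libraries labelled YKO. Of the 15 tested members of the erythroid marker list, 15 had a positive log2 fold change, with a median of 1.28 against -0.02 over all tested genes. None of the 15 was called in the fit of 19 libraries. Of them 6 had an unadjusted p under 0.05 in the higher direction, against 1.91% of all tested genes. For 5 the groups did not overlap with YKO higher, against 2.12% of all tested genes. These 5 are also among the 6 and are Slc4a1 and the globin genes Hba-a1, Hba-a2, Hbb-bs and Hbb-bt. In a fit of the 8 young libraries alone 13 of the 15 had an unadjusted p under 0.05, against 10.5% of all genes of that fit. There 1 of the 15 was called, beside 33 of 26083 genes. The globin genes form near-identical pairs, so the members are not independent in any of these counts. In bulk RNA, more cells of a type and more RNA per cell cannot be told apart.

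Hba-a1, an alpha globin gene, was at 50.3, 82.5, 76.9 and 66.3 CPM in YWT and at 330, 116, 323 and 409 CPM in the libraries labelled YKO (log2 fold change 2.09, SE 0.51, edgeR adjusted p = 0.274). Hbb-bs, an adult beta globin gene, was at 74.7, 112, 98.8 and 101 CPM in YWT and at 428, 143, 413 and 544 CPM in the libraries labelled YKO (log2 fold change 1.98, SE 0.55, edgeR adjusted p = 0.443). Slc4a1 was at 3.10, 6.39, 8.35 and 6.20 CPM and at 38.80, 12.95, 21.04 and 27.39 CPM (log2 fold change 2.06, SE 0.49, edgeR adjusted p = 0.241). YKO2 was the lowest of its group in all 3 and still above each YWT library. Hba-a2 and Hbb-bt are near-identical copies of Hba-a1 and Hbb-bs, so the division of reads within each pair is uncertain.

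The erythroid transcription factors overlapped between the groups. Klf1 was at 55.2 to 193 CPM in YWT and at 145 to 335 CPM in the libraries labelled YKO (log2 fold change 1.28, SE 0.90), and Gata1 at 55.1 to 146 and 118 to 251 CPM (log2 fold change 1.25, SE 0.72). Gfi1b, a repressor needed for erythroid and megakaryocytic differentiation, belongs to the HSC identity list used here and not to the erythroid list. It had a log2 fold change of 0.75 (SE 0.33) with YKO2 within the YWT range. The summed erythroid level was 1988 to 4416 CPM in YWT and 6453, 2891, 7569 and 7699 CPM in the libraries labelled YKO. Without YWT2, YKO1 and YKO2 the list median was 1.66, with all 15 members higher, and without YWT4 and YKO2 it was 1.28.

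Genes of heme synthesis and iron handling went the same way. Of 22 listed and tested, 20 were higher and the median log2 fold change was 0.48. The 1 called member was Alas2, reported above, and 0.0267% of all tested genes were called. With Alas2 counted, 3 had an unadjusted p under 0.05 in the higher direction, against 1.91% of all tested genes. With Alas2 also counted, 4 did not overlap with YKO higher, against 2.12%. Leaving out YWT2, YKO1 and YKO2 gave 20 higher as well, with a median of 0.59. Slc11a2, the iron transporter DMT1, was at 27.7 to 68.3 CPM in YWT and 70.9 to 125 CPM in the libraries labelled YKO (log2 fold change 1.119, SE 0.40, edgeR adjusted p = 0.779). Alad, the enzyme after ALAS2 in the pathway, had a log2 fold change of 0.85 (SE 0.40) with overlap.

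The sequences before the starts of Alas2, Hba-a1 and Hbb-bs are shown as those of the called erythroid enzyme and of 1 gene of each globin pair. Each is the 250 bases upstream of the RefSeq start (GRCm38.p6), with the letters GATAA on either strand (GATAA or TTATC), the core bound by GATA factors, in capitals. The windows are chrX:150547167-150547416 for Alas2, chr11:32283422-32283671 for Hba-a1 and chr7:103827929-103828178, minus strand, for Hbb-bs.
Alas2: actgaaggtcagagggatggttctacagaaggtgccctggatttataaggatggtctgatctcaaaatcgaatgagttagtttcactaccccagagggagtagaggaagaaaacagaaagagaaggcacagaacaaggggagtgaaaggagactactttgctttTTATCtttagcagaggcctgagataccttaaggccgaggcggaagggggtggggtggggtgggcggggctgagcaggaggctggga
Hba-a1: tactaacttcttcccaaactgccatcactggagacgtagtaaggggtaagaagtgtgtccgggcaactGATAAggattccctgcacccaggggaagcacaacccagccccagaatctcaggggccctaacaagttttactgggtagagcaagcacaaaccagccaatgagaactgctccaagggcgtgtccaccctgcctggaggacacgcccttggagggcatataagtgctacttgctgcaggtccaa
Hbb-bs: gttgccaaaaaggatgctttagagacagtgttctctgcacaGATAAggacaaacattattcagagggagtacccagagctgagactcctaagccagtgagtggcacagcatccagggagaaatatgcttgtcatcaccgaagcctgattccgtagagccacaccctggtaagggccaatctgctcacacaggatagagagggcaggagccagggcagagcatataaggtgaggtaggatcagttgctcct
Each of the 3 windows held the motif 1 time, at positions -86, -182 and -209 from the start in that order. The windows of Hba-a2 and Hbb-bt also held it 1 time each, and that of Tspan33, an erythroid list member with a log2 fold change of 0.77 (SE 0.36), did not hold it. Of 32851 promoter windows of the same length, 22.6% held it, so a match describes the letters and no binding.

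Cell cycle genes were mostly higher without any passing the test. Of 24 S phase genes 23 were higher with a median log2 fold change of 0.42, and of 26 mitosis genes 24 were higher with a median of 0.46, and none of the 50 reached an unadjusted p under 0.05 in the fit of 19 libraries. In a fit of the 8 young libraries alone 13 and 10 of them did, against 10.5% of all genes of that fit, and the medians were 0.42 and 0.45. Without YWT2, YKO1 and YKO2, 23 of 24 and 22 of 26 were higher. The summed S phase level was 3081 to 4679 CPM in YWT and 5856, 3823, 5532 and 5585 CPM in the libraries labelled YKO, so YKO2 lay within the YWT range. Mcm7, a subunit of the replicative helicase, was at 253 to 397 CPM in YWT and at 335 to 565 CPM in the libraries labelled YKO (log2 fold change 0.67, SE 0.39).

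HSC identity genes were mostly lower. Of 38 members 32 had a negative log2 fold change, with a median of -0.36, and 5 had an unadjusted p under 0.05 in the lower direction, against 2.68% of all tested genes. Gfi1b, described above, was the 1 member with such a p in the higher direction. No member was called. In a fit of the 8 young libraries alone 12 of the 38 had an unadjusted p under 0.05, against 10.5% of all genes of that fit. Mecom was at 126 to 191 CPM in YWT and at 88.6, 90.3, 129 and 126 CPM in the libraries labelled YKO (log2 fold change -0.60, SE 0.25). Hlf, which did not overlap, was at 230 to 350 CPM in YWT and at 149.9 to 229 CPM in the libraries labelled YKO (log2 fold change -0.55, SE 0.28). YKO1 and YKO2, the libraries with the most T cell RNA and high plasma cell RNA, were the lowest for Mecom, Hlf and Procr. YWT2, with the most plasma cell RNA, was at 167, 298 and 93.6 CPM for these genes, within the range of the other YWT libraries. A link with the RNA of other cells was not tested. Without YWT2, YKO1 and YKO2, 23 of the 38 were lower, the median was -0.11 against -0.24 over all genes of that fit, and no member had an unadjusted p under 0.05.

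Markers of lymphoid cells moved with the same libraries. Of 14 T and NK cell genes 10 had an unadjusted p under 0.05 in the higher direction, against 1.91% of all tested genes, with a median log2 fold change of 1.95. Without YWT2, YKO1 and YKO2, 0 of the 14 had such a p and the median was 0.30. Cd3e, a T cell receptor subunit, was at 0.338 to 2.07 CPM in YWT and at 23.9, 16.0, 3.32 and 2.38 CPM in the libraries labelled YKO. Cd22, a B cell receptor co-receptor, was at 16.7 to 32.0 CPM in YWT and at 129, 204, 31.2 and 16.8 CPM in the libraries labelled YKO. Of 15 B cell genes 14 were higher in the fit of all libraries (median 0.96) and 14 were lower without YWT2, YKO1 and YKO2 (median -0.35). All 8 plasma cell genes had a negative log2 fold change (median -0.38), none with an unadjusted p under 0.05, and 8 of 8 were also lower without YWT2, YKO1 and YKO2. The immunoglobulin heavy chain gene Ighm ranged from 3374 CPM in YKO4 to 164540 CPM in YWT2. Of 15 monocyte and macrophage genes 13 were higher (median 0.63), 3 of them with an unadjusted p under 0.05, and 11 were higher without YWT2, YKO1 and YKO2, none with such a p. The part of these cells in the other results was not tested.

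**Figure D3:**
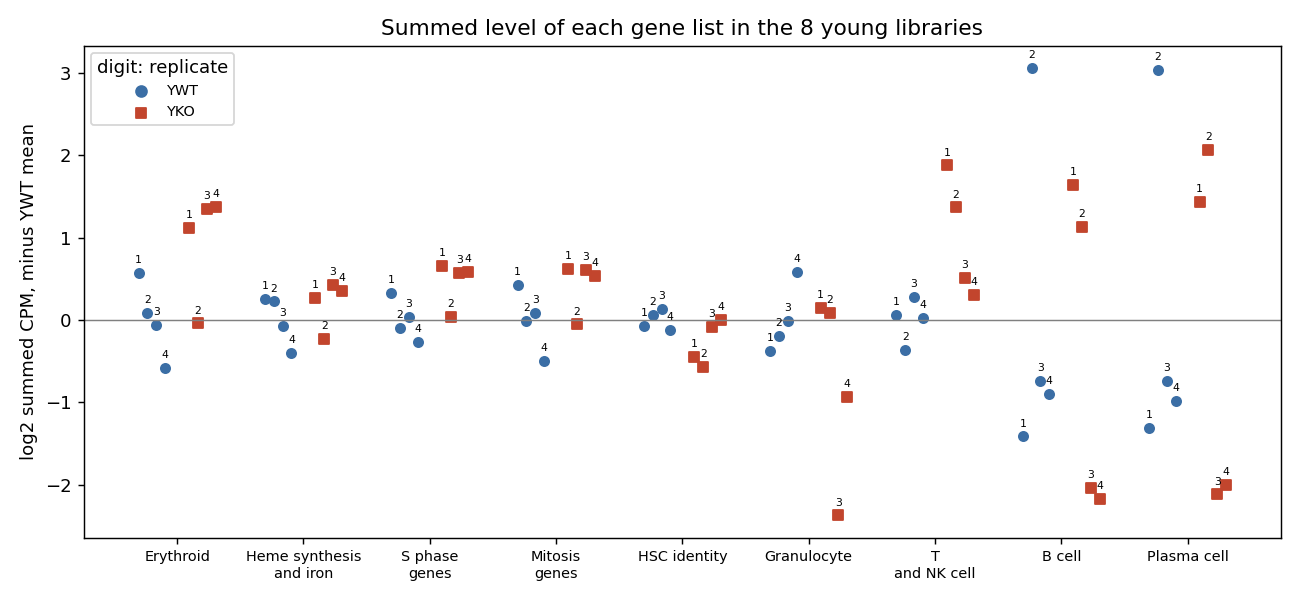
Summed CPM of each gene list on the log2 scale, minus the mean of the 4 YWT libraries (vertical axis), in each young library, marked by its replicate number. For the erythroid list YKO1, YKO3 and YKO4 lie above each YWT library and YKO2 within their range, and for the plasma cell list YWT2, YKO1 and YKO2 lie above the other 5 libraries.

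The lists closest to the known roles of GADD45B showed small medians. Of 29 genes of DNA methylation and demethylation none was called and the median log2 fold change was 0.03. The median covers shifts in both directions. The groups did not overlap with YKO higher for 5 of the 29, against 2.12% of all tested genes. They did not overlap with YKO lower for 1, against 3.01%. In the fit of the 8 young libraries alone 9 of the 29 had an unadjusted p under 0.05, against 10.5% of all genes of that fit. Without YWT2, YKO1 and YKO2, 0 of the 29 had such a p. Dnmt1, the maintenance methyltransferase, was at 275 to 373 CPM in YWT and at 441 to 607 CPM in the libraries labelled YKO (log2 fold change 0.62, SE 0.29, edgeR adjusted p = 1.00). Tet1, which oxidizes methylcytosine, was at 29.0 to 40.2 CPM in YWT and 18.8 to 27.7 CPM in the libraries labelled YKO (log2 fold change -0.62, SE 0.29, edgeR adjusted p = 1.00).

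Of 35 genes of the p53 and DNA damage list 18 were higher and 17 lower, with a median of 0.03. Rrm2b, the ribonucleotide reductase subunit induced by p53, was at 16.0 to 25.8 CPM in YWT and 9.54 to 13.1 CPM in the libraries labelled YKO (log2 fold change -0.84, SE 0.22, edgeR adjusted p = 0.353). Of 24 genes of NF-kB signalling 15 were higher and none had an unadjusted p under 0.05, and without YWT2, YKO1 and YKO2 11 were higher and 13 lower. Of 22 TGF-beta and Smad genes 19 were lower, with a median of -0.11. The receptors Acvr2a and Bmpr2 did not overlap and had log2 fold changes of -0.82 (SE 0.26) and -0.89 (SE 0.28). Of 27 leukotriene and prostaglandin genes 14 were higher and 13 lower, with a median of 0.01. Of the 27, 4 had an unadjusted p under 0.05 and all 4 were lower, against 2.68% of all tested genes in that direction. Only 1 of the 27 had such a p without YWT2, YKO1 and YKO2, and 1 without YWT4 and YKO2. The 4 are the called gene Cysltr2, Alox5ap (5-lipoxygenase activating protein, log2 fold change -0.65), Pla2g4a (cytosolic phospholipase A2, -0.52) and the prostaglandin E receptor gene Ptger3 (-0.48). Cysltr2 is reported above, and the list was chosen with earlier results of these data known, so these counts are a description. Of 22 genes of glucose uptake and insulin signalling 14 were higher and 8 lower. The called one, Tbc1d4, is reported above, and 0.0267% of all tested genes were called. Without YWT2, YKO1 and YKO2, 10 of the 22 were higher and 12 lower. Of 17 genes of the BCL2 family 12 were lower, Bcl2 among them with a log2 fold change of -0.60 (SE 0.23). The split became 7 lower and 10 higher without YWT2, YKO1 and YKO2, the median turned from -0.10 to 0.10, and none had an unadjusted p under 0.05. Of 33 interferon-stimulated genes 24 were lower with a median of -0.14, and Ifi44 was at 31.1 to 60.8 CPM in YWT and 16.2 to 27.9 CPM in the libraries labelled YKO. Without the same 3 libraries 23 of the 33 interferon-stimulated genes and 15 of the 22 TGF-beta and Smad genes were lower. So were 13 of the 35 p53 genes, 14 of the 29 DNA methylation genes and 7 of the 17 MTK1, p38 and JNK kinase genes. The medians of these 5 lists in that fit were, in order, -0.09, -0.14, 0.04, 0.05 and 0.02, against -0.24 over all its genes.

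The share of genes with the strongest separation differed between chromosomes. Taking every gene with an unadjusted edgeR p under 0.001 and no overlap between the groups gave 76 genes, 31 higher and 45 lower in the libraries labelled YKO, or 0.226% of the genes tested. This rule and the windows described here were chosen after the values were seen, and they carry no test. Chromosome 14 held 7 of them among 1267 tested genes (0.552%), chromosome 5 held 11 of 2212 (0.497%) and chromosome 7 held 13 of 2745 (0.474%), while chromosomes 9 and 16 held none.

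**Figure D4:**
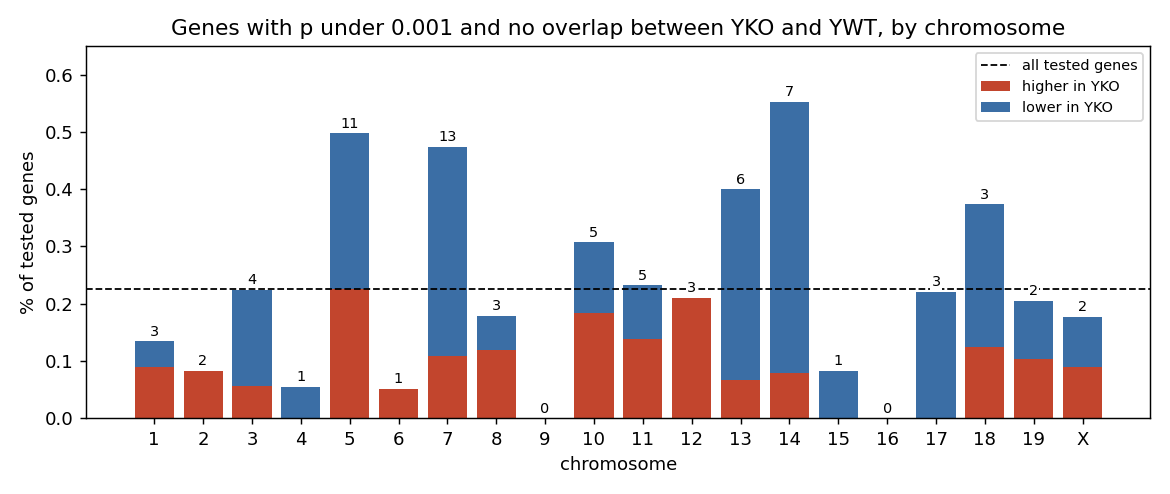
Percentage of the tested genes of each chromosome (bars, from 0) that had an unadjusted p under 0.001 and no overlap between YKO and YWT, split by direction, with the number of genes on each bar. The dashed line is the share over all tested genes, 0.226%, and the bars of chromosomes 14, 5 and 7 are the highest.

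Some of these genes lay in shared stretches, which are given here from the first to the last such gene, so that the genes at the edges count in each share. Between Meis3 and Zfp27 on chromosome 7 (chr7:16175090-29906572) 9 of 392 tested genes met the rule (2.3%), namely Meis3, Slc1a5, Gm45104, Apoe, Gm16251, Zfp114, Zfp526, Zfp974 and Zfp27, 7 of them lower. Between Stap1 and Crlf2 on chromosome 5 (chr5:86071746-109558993) 8 of 334 did (2.4%), among them Cox18, Naaa, Gpat3 and Slc26a1. Between Rhobtb3 and 1700023H06Rik on chromosome 13 (chr13:75869537-80885524) 4 of 36 did (11.1%), and between 4930480K23Rik and Cysltr2 on chromosome 14 (chr14:69732784-73049114) 3 of 40 did (7.5%), while the other 4 of the 7 on chromosome 14 lay outside that stretch. On chromosome 10, 4 of the 191 tested genes within 2 Mb of Gadd45b met the rule (2.09%). These were Palm and Prtn3 on one side and the genes Gm32687 and Gm4924 on the other, 2 higher and 2 lower. Gm32687 was at 2.08 to 3.11 CPM in YWT and at 0 to 0.394 CPM in the libraries labelled YKO, and Gm4924 at 4.44 to 6.98 and 10.3 to 11.6 CPM. Of the 10 tested genes nearest to Gadd45b, of which Slc39a3 is the farthest at 96334 bases, none was called and none was free of overlap, and Sppl2b, an intramembrane protease gene, had the smallest unadjusted p (0.0363, edgeR).

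Old HSCs allow the same genes to be read in other animals. In OKO vs OWT, 11 genes were called (0.0327% of those tested) and 2741 had an unadjusted p under 0.05 (8.14%). The OWT libraries and 4 of the 7 OKO libraries were sequenced in batch 2, and both contrasts come from 1 fit that shares the estimate of spread. Of the 9 genes called in young HSCs, 8 had the same direction in old HSCs with an unadjusted p under 0.05 and 4 were called there, namely Wdfy1, Gm9855, 4930480K23Rik and Cysltr2.

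Wdfy1 was at 13.1, 14.99, 21.4 and 21.7 CPM in OWT and between 41.9 and 90.3 CPM (median 61.8) in the 7 OKO libraries, a log2 fold change of 1.88 (SE 0.25, edgeR adjusted p = 0.00476) beside 2.18 in young HSCs. Cysltr2 was at 39.4 to 80.5 CPM in OWT and 15.5 to 28.1 CPM in OKO (log2 fold change -1.39, SE 0.22, edgeR adjusted p = 0.0206), beside -1.52. The lincRNA 4930480K23Rik was at 3.22 to 6.98 CPM in OWT and 11.4 to 25.5 CPM in OKO, a log2 fold change of 1.66 (SE 0.25). Groups did not overlap for these 3 genes at either age. Tbc1d4 had a log2 fold change of -1.10 (SE 0.20, edgeR adjusted p = 0.0509), with OKO below OWT in each library. Gm9855 was at 1.46 to 2.77 CPM in OWT and 4.04 to 17.2 CPM in OKO (log2 fold change 2.24, SE 0.38), and Tdg at 29.4 to 52.9 CPM in OWT and 8.14 to 26.7 CPM in OKO, a log2 fold change of -1.4998 (SE 0.27, edgeR adjusted p = 0.0411).

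Alas2 was the exception. It was at 2.16 to 4.12 CPM in OWT and 0.783 to 3.94 CPM in OKO (log2 fold change -0.62, SE 0.33, edgeR adjusted p = 0.592). The old effect minus the young effect was -2.84 on the log2 scale (SE 0.51), with an unadjusted p of 1.26e-05 and an edgeR adjusted p of 0.423 over all genes, so this difference did not pass the correction. The erythroid list as a whole had 8 members higher and 7 lower in OKO vs OWT with a median of 0.10, and the heme list 9 and 13 with a median of -0.11. The HSC identity list had 37 of 38 lower with a median of -0.32. Other lists also leaned lower in this contrast, so the count is not particular to HSC genes. Of the S phase genes 21 were lower and 3 higher (median -0.16), and of the MTK1, p38 and JNK kinases 15 and 2 (-0.15). The monocyte and macrophage genes, with 10 higher and 5 lower, did not. Granulocyte markers were lower in OKO for 15 of 15, with a median of -1.69.

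Of the 76 strongly separated genes, 68 had the same direction in OKO vs OWT (89.5%, against 49.1% of all tested genes), and 45 also had an unadjusted p under 0.05 there in that direction (59.2%, against 4.81%). None had an unadjusted p under 0.05 in the other direction. The median absolute log2 fold change of the 76 was 1.59 in young and 0.76 in old HSCs, where selection on the young contrast raises the first value. All 9 genes of the chromosome 7 window, all 8 of the chromosome 5 window and all 4 of the chromosome 13 window kept their direction, and of the 4 near Gadd45b 3 did, Palm being the exception. Stap1 had a mean of 28.7 ± 6.44 CPM over OKO (SD, n = 7) against 60.1 ± 2.82 CPM over OWT (SD, n = 4), with a log2 fold change of -1.07 (edgeR adjusted p = 0.0182) beside -1.06 in young HSCs. The erythroid genes Hba-a1 and Slc4a1 and the gene Trib2 were among the 8 of the 76 whose direction differed.

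**Figure D5:**
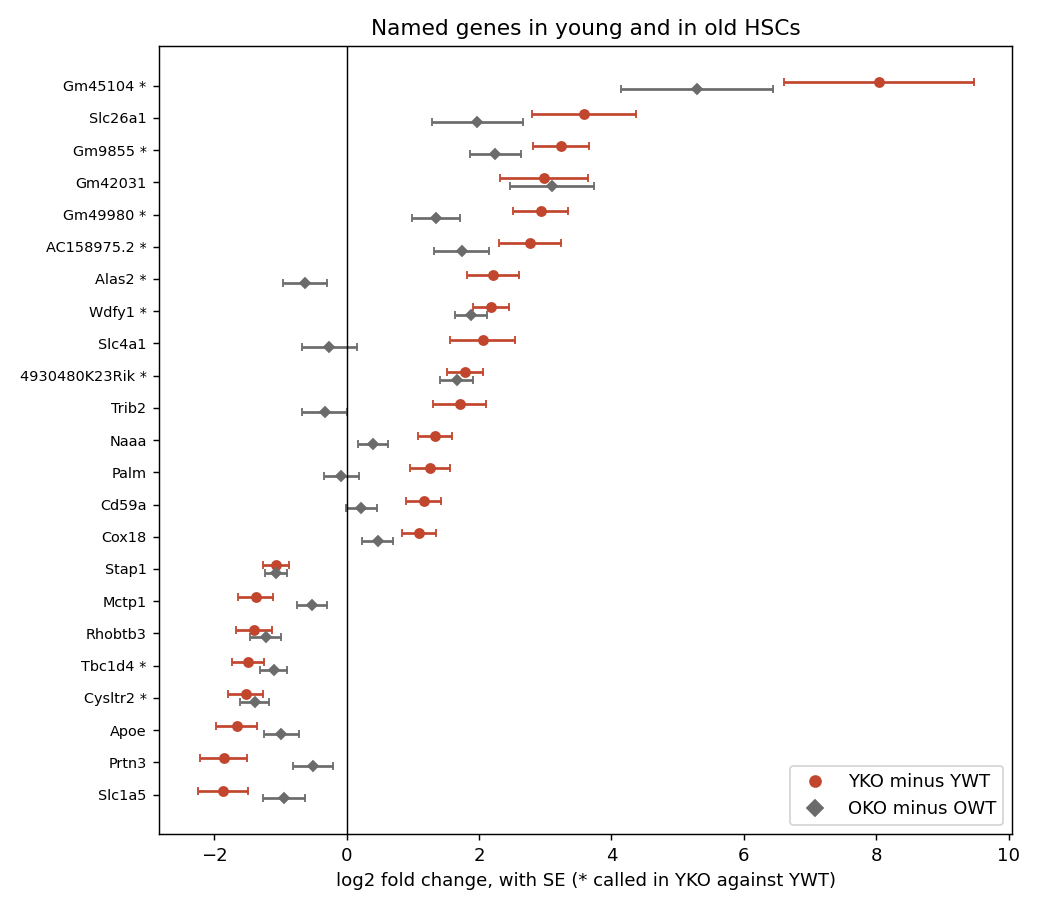
Log2 fold change with its SE (horizontal axis) for the 9 called genes, marked with an asterisk, and 14 genes that missed the threshold without overlap, in YKO minus YWT (circles) and OKO minus OWT (diamonds). Most diamonds lie on the side of the circle, and Alas2, Slc4a1, Trib2 and Palm lie on the other side of 0.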

How the data were processed

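RNA-seq libraries were made from sorted HSCs with the SMART-Seq v4 kit. The authors trimmed reads with Trim Galore 0.4.3, aligned them to mm10 with STAR and deposited raw counts per gene from featureCounts, 1 file per library; strand settings are not given in the sources used here. Counts have no molecular identifiers, and nothing states that replicates came from separate animals, so p-values measure the spread between these libraries, which may be technical. Libraries were grouped by the labels. Bisulfite libraries were not analysed here. Depth ranged from 22197555 to 62472600 counts in the young libraries. Groups, gene lists and members were chosen with earlier results of these data known. Counts of members over a list therefore describe these data and test no list.

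Genes were filtered with filterByExpr, normalized by TMM and fitted in edgeR 4.0.16 (R 4.3.3) with 1 mean for each of the 4 groups over all 19 libraries, and YKO minus YWT was tested by the quasi-likelihood test with Benjamini-Hochberg adjustment. The SE is the absolute log2 fold change over the square root of F. A gene was called at an adjusted p under 0.05 and a fold over 1.5. OKO minus OWT and the difference of both contrasts came from the same fit. Gadd45 genes were also compared by exact permutation. DESeq2 1.42.0, which the authors used, was an alternative, with other normalizations, filters, libraries and covariates (a surrogate variable from sva 3.50.0). The fits were tested on simulated data. Named genes were the Gadd45 family, the called genes, 8 higher and 8 lower uncalled genes of smallest p with a mean of at least 8 CPM and no overlap, up to 4 members of smallest p per list with a mean of at least 1 CPM, and the 10 tested genes nearest Gadd45b. A few of the genes this rule gives are not reported here. Tdg, the sex-linked genes and the genes named with a chromosome stretch were added after their values were seen. So were Kit, Slamf1, Hlf, Procr, Klf1, Gata1, Ighm and Jchain. Positions are from GENCODE M21, which places 33226 of 33690 tested genes by symbol, and promoter sequences from RefSeq on GRCm38.p6.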

Additional observations from a re-analysis of the deposited data

Results flagged for a closer look

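In 74 groups of 4 libraries, the highest or lowest library stood apart by Dixon's criterion in 5, where chance gives about 1 in 20, or 3.7. Trib2 was at 335.7 CPM in YKO1, against 168.7 to 194.4 in the other libraries labelled YKO. In YWT2 the summed plasma cell genes were at 27070 CPM, against 1333 to 1972 in the other YWT libraries, and the summed B cell genes at 169100 CPM, against 7616 to 12120. Most of these sums in YWT2 was Jchain (24827 CPM) in the first and Ighm (164540 CPM) in the second. In YKO2 the summed S phase genes were at 3823 CPM, against 5532 to 5856 in the other libraries labelled YKO, and the summed mitosis genes at 1531 CPM, against 2299 to 2445.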

How the results depend on the processing

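The number of genes called in YKO vs YWT depended strongly on the setting, from 9 as reported to 136 with DESeq2 (76 higher and 60 lower, the 9 among them), 16 with DESeq2 size factors in edgeR, 19 with upper-quartile normalization, 20 without a filter, 29 with a mean of at least 5 CPM and 17 with robust estimation. Fits of fewer libraries called 33 (the 8 young libraries), 666 (the same with DESeq2), 30 (batch 1), 28 (sex from the study's table as a covariate, which goes against Xist and Y-linked expression in YWT1 and YWT3), 18 (1 surrogate variable) and 2 (without YWT4 and YKO2). Chosen after seeing the data, 50 were called with presence of Y-linked transcripts as a covariate, 34 without OKO1 to OKO3 and 0 without YWT2, YKO1 and YKO2. Leaving out 1 library at a time gave 2 (without YWT4) to 20 (without OKO7), with 14 without OKO1 or OKO2 and 15 without OKO4. With the replicate number as a block 48 were called (32 higher and 16 lower). Same-numbered libraries had correlations of deviations from -0.0108 to 0.216, so the numbers were not taken to pair the libraries.

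With 1 library left out, the log2 fold change of Gadd45b ranged from -0.42 (without YKO2) to 0.18 (without YWT2) and was 0.02 without YKO4, and that of Gadd45g from -0.089 (without YKO4) to 0.24 (without YKO1). Of the 9 genes, 8 were called in OKO vs OWT with DESeq2, and 1 (without OWT1) to 4 with 1 library left out, with 2 without OWT2 or OKO6. The cause of these shifts was not tested. Over the 35 other settings the 9 genes kept their direction, Wdfy1 between 2.05 and 2.31 and Gm9855 between 3.01 and 3.52, each losing its call 1 time, while Gm45104 lost its call in 16 and Alas2 in 11.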
